A study of Mus musculus with 12 samples.

Results

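The comparison set the 4 arrays of zone III of the embryonic mouse tibia against the 4 arrays of zone I, 8 of the 12 arrays of the series. Tibiae came from CD1 mouse embryos at embryonic day 15.5 and were cut by hand into segments named zones I, II and III, with no treatment in any group. Zone I is the segment at either end of the bone and holds resting and proliferating chondrocytes, and zone III, the segment farthest from the ends, holds the most mature hypertrophic chondrocytes together with the mineralized region. RNA of a zone was pooled over all animals of a litter and 4 litters were used, so an array is a litter and not a single embryo. The array letters A to D were taken to name the litters, which the labels do not state. The zones were cut by morphology, so each holds every cell type of its segment, perichondrium, vessels and blood included. In such whole-tissue RNA, fewer cells of a type and less RNA per cell cannot be told apart. Of 45101 probe sets on the Affymetrix MOE 430 2.0 array, 21833 had a mean signal of at least 50 in zone I or zone III once the 64 control probe sets were left out, and they stand for 11693 genes. Every difference is zone III minus zone I on the log2 scale, with the SE from limma, so a positive value is a gene higher in zone III. A gene was called where it differed at least 1.5-fold and its p, adjusted by Benjamini-Hochberg, was under 0.05.

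In a growing long bone, cartilage is replaced by bone. Round resting cells near the joint feed columns of dividing chondrocytes that lay down collagen II and aggrecan, and these cells then stop dividing, enlarge, make collagen X and let their matrix mineralize. Osteoclasts, which are giant cells of the macrophage lineage, dissolve the mineralized cartilage, while blood vessels and osteoblasts move in and lay down bone.

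The deposited values were linear signals that shared a trimmed mean of 150, with 2% of the values cut off at each end, and the median signal per array was 32.7 to 43.3 over the 8 arrays. A sign of RNA quality moved with the zones. The ratio of the 3' to the 5' control probe set of Gapdh was 1.27 to 1.76 on the zone I arrays and 1.98 to 2.28 on the zone III arrays, whereas the same ratio for beta-actin was 2.09 to 2.95 in zone I and 1.70 to 2.02 in zone III. Their part in the results was not tested.

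The genes below were reported by the study as zone markers from these same arrays. Their values describe the zones and are no independent check of the labels. Dmp1 encodes dentin matrix protein 1, an acidic protein of mineralizing bone matrix. Its signal was 2.098, 1.36, 2.88 and 3.23 on the zone I arrays A to D and 1865, 1590, 1817 and 2000 on the zone III arrays A to D, a difference of 9.64 ± 0.25 or 799-fold (adjusted p = 2.3e-08). Mmp13, the collagenase that cuts collagen II in late cartilage, read 20.3, 10.02, 14.9 and 15.8 in zone I and 3590, 3200, 3256 and 3318 in zone III, 226-fold higher (adjusted p = 2.2e-08). Tnfsf11 encodes RANK ligand, the signal that osteoclast precursors need, and read 25.9, 14.9, 7.18 and 21.9 in zone I against 905, 815, 914 and 1080 in zone III (5.88 ± 0.35, adjusted p = 1.5e-06). For these 3 genes no zone I array came near the lowest zone III array, and every zone I signal lay under 50, so the fold against zone I depends on the background. In the other direction, Sox5, a Sox factor that helps to turn on cartilage matrix genes, read 436, 684, 512 and 538 in zone I and 18.99, 19.8, 39.3 and 20.4 in zone III (-4.52 ± 0.24, adjusted p = 9.5e-07). Gdf5, a ligand of the BMP family made where joints form, read 472, 379.6, 366 and 269.7 in zone I and 22.2, 29.1, 24 and 24.2 in zone III (-3.88 ± 0.17, adjusted p = 3.5e-07). Both were higher on all 4 zone I arrays than on any zone III array.

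**Figure D1:**
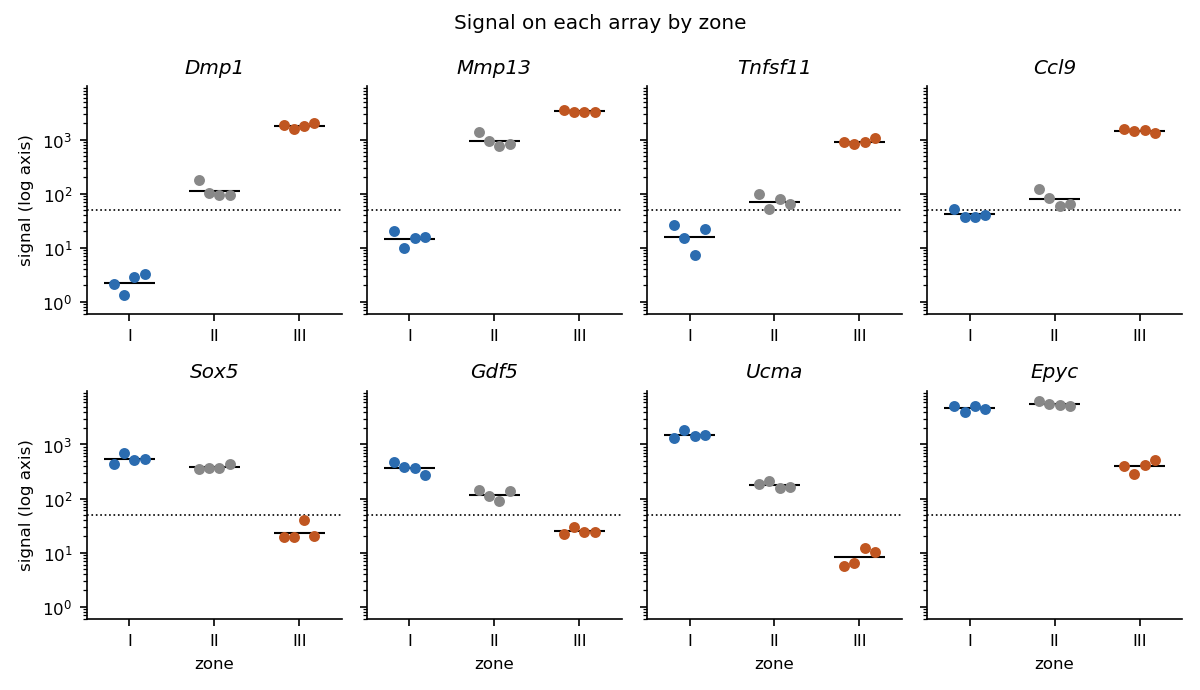
Signal on each array (log axis, no unit) in zones I, II and III for 8 genes, with 1 point per array from A on the left to D on the right, a bar at the geometric mean and a dotted line at a signal of 50. Dmp1, Mmp13, Tnfsf11 and Ccl9 were higher in zone III and Sox5, Gdf5, Ucma and Epyc lower, without overlap between the zone I and zone III arrays.

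The promoters of 4 genes are shown to set genes of opposite direction side by side: Dmp1 and Ucma, with the largest rise and the largest fall, and Mmp13 and Epyc, a matrix-cutting enzyme that rose and a bright cartilage matrix gene that fell. Ucma encodes a small secreted cartilage protein and Epyc the leucine-rich matrix protein epiphycan. The stretches are the 250 bases before the start site from RefSeq on GRCm38.p6, 5′ to 3′, all on the plus strand. They lie at chr5:104197325-104197574 for Dmp1, chr9:7272264-7272513 for Mmp13, chr2:4975872-4976121 for Ucma and chr10:97643818-97644067 for Epyc, and Dmp1 and Epyc have 2 windows each in that table, of which the first is shown. Capitals mark the letters TGACTCA (AP-1), TGTGGTT (Runx) or AACAAT (Sox) on either strand.
Dmp1: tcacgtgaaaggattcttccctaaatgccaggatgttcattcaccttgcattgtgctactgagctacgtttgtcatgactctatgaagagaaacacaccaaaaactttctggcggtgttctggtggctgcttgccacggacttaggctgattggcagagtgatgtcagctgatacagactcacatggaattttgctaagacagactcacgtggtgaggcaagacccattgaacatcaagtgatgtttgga
Mmp13: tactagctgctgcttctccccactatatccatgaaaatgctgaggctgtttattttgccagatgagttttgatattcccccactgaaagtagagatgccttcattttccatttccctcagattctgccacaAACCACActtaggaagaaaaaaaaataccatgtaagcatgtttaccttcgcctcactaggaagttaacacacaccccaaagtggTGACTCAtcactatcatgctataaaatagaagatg
Ucma: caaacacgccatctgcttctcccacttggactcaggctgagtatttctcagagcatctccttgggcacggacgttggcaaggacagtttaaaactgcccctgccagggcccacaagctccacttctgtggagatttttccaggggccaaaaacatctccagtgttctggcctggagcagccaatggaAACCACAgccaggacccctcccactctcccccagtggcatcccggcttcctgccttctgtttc
Epyc: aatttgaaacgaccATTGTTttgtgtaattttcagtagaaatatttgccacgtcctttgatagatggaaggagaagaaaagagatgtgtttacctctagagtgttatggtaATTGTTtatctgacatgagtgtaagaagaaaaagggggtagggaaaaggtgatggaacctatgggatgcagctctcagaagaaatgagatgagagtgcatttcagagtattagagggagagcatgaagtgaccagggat
Counted over a window of 300 bases that runs 50 bases past the start site, Mmp13 holds the Runx letters at base 132 and the AP-1 letters at base 216. Ucma, which moved the other way, holds the Runx letters at base 188 and the AP-1 letters at base 274, past the stretch shown. Epyc holds the Sox letters at bases 15 and 112, and the Dmp1 window holds none of the 3 motifs. Promoter windows were matched for 9438 of 11693 genes. The AP-1 letters stood in 3.4% of all windows, in 4.5% of those of genes higher in zone III and in 3.9% of those of genes lower in zone III. The shares for the Runx letters were 3.4%, 3.1% and 3.2%, and for the Sox letters 5.8%, 6.5% and 5.2%. A match is a run of letters and not a bound site.

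Of the 21833 probe sets 6712 were called (30.7%), 3727 higher in zone III (17.1%) and 2985 lower (13.7%). Read at the brightest probe set of each gene, 3821 of 11693 genes were called (32.7%), 2027 higher (17.3%) and 1794 lower (15.3%), and the median difference over all genes was -0.01. Counts of gene lists below are over tested members and are to be set beside these shares. List members whose mean signal lay under 50 in both zones were not tested. The balance of directions depended on the scaling. Centring the arrays on the genes of ribosomal proteins, which lay at -0.16 as deposited, moved the median over all genes to 0.16 and the calls to 2625 higher and 1219 lower, so that 68.3% of the calls were higher in place of 53.0%. Differences of at least 10-fold were reached by 125 genes higher in zone III and by 71 lower. The 8 arrays did not overlap between the zones for 1940 of the 2027 higher genes and 1681 of the 1794 lower genes, and for 5385 of all 11693 genes. In 593 of the higher genes the zone I mean, and in 411 of the lower genes the zone III mean, lay under a signal of 50. Where a gene had 2 or more probe sets kept, all were called the same way in 512 of 788 higher genes and 375 of 652 lower genes. A probe set was called the other way in 3 and 2 of them. Among genes named below, Flt4, Vegfa, Col4a1, Egr3, Fosl2, Sema6d, Sox10 and Igfbp5 had only 1 of 2 probe sets called.

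**Figure D2:**
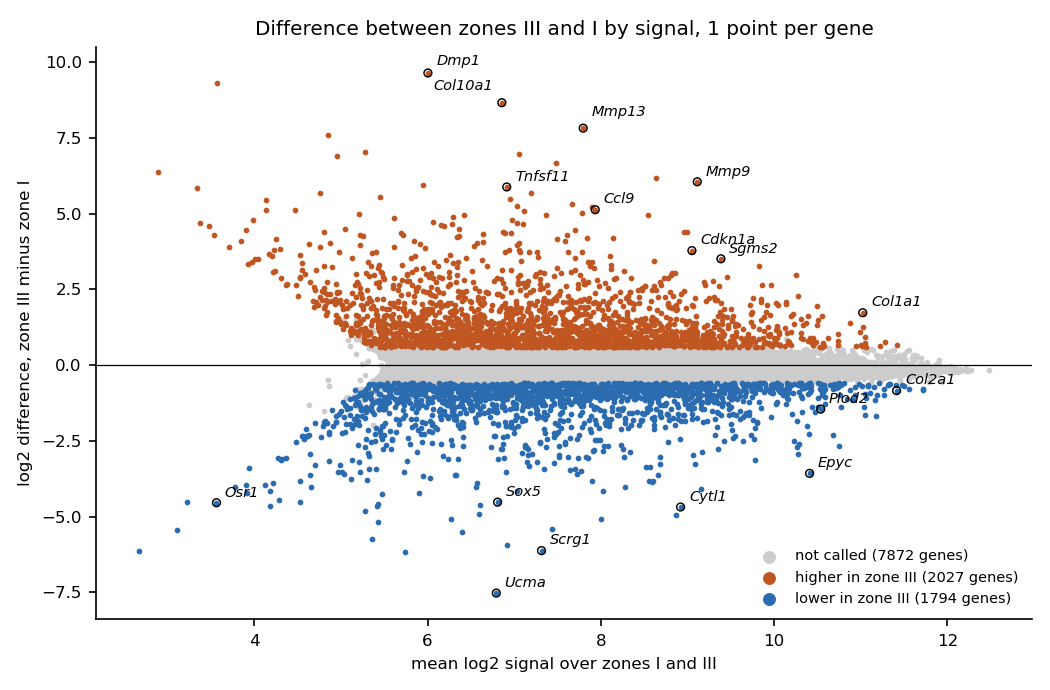
Log2 difference (zone III minus zone I) of each of 11693 genes against its mean log2 signal over both zones, with genes called higher in zone III in orange, lower in blue and not called in grey. The largest differences, of Dmp1 and Ucma, lie far from the genes not called. Bright matrix genes were spread, since Col1a1 and Col2a1 differed by less than 4-fold and Epyc by 11.9-fold.

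The largest rises were of genes close to absent in zone I. Col10a1, the collagen of hypertrophic cartilage, read 5.68, 5.95, 4.78 and 6.85 in zone I and 2596, 1814, 2519 and 2475 in zone III. By quantitative RT-PCR the study found a smaller fold for Col10a1 than on the arrays. Hp, which encodes the haemoglobin-binding protein haptoglobin, rose from a mean signal of 2.102 ± 0.409 to 406 ± 69.5 (n = 4 arrays each). Ocstamp, needed for the fusion of osteoclast precursors, rose from 3.64 ± 1.75 to 449.9 ± 76.2, and Atp6v0d2, a proton pump subunit of osteoclasts, from 12.1 ± 3.27 to 1494 ± 137. Phex, a membrane peptidase tied to phosphate balance, rose from 18.4 ± 5.58 to 1808 ± 144. B3galt2, a galactosyltransferase, and the unnamed transcripts 9130024F11Rik and 4833422C13Rik were also among the 12 largest, with differences of 6.90, 9.32 and 6.38. Their 4 zone III arrays lay between 295 and 377, between 236 and 426, and between 59.3 and 78.5.

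Among genes whose mean signal was 50 or more in both zones, the largest rise was of Ibsp, bone sialoprotein, from 100.1, 26.4, 29.2 and 61.4 in zone I to 3568, 3193, 3285 and 3473 in zone III. Mmp9, the gelatinase of osteoclasts, followed with 93.7, 43.96, 61.96 and 83.6 and 5047, 4242, 4475 and 4295. Acp5, tartrate-resistant acid phosphatase, read 113, 117, 118 and 99.2 and 2760, 2171, 2493 and 2023. Each of the 3 was lower on every zone I array than on any zone III array, but Ibsp and Mmp9 had zone I arrays under 50, so their folds still rest in part on the background. Others of this group were Steap4, a metalloreductase (4.95), Hpgd, the enzyme that breaks down prostaglandins (4.40), Loxl4, a lysyl oxidase (3.73), Fam20c, the kinase that phosphorylates secreted matrix proteins (3.72), and Cbr3, a carbonyl reductase (3.60). All of these kept non-overlapping arrays.

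The largest fall was of Ucma, whose signal was 1306, 1820, 1417 and 1508 in zone I and 5.53, 6.51, 12.4 and 10.1 in zone III, 184-fold lower (adjusted p = 7.6e-08). Scrg1, a gene active in cartilage-forming cells, read 1316, 1466, 1243 and 1288 in zone I and 12.9, 13.96, 18.8 and 39.4 in zone III. Serpina3n, a serine protease inhibitor, fell from 489 ± 208 to 7.25 ± 4.06 and Nlgn3, a neuroligin, from 54.6 ± 13.2 to 0.801 ± 0.33. Thbs4, a thrombospondin of tendon, and Mfap4, a microfibril protein, differed by -5.73 and -5.52. Of genes above a mean of 50 in both zones, Ecrg4 fell from 2609 to 89.9, Cytl1, a small secreted protein of chondrocytes, from 2458 ± 263 to 97.5 ± 21.2, and Prelp, a leucine-rich matrix protein, from 1131 ± 305 to 62.4 ± 9.93. Pou3f3, a POU-domain transcription factor, read 849.8, 1182, 958 and 684 in zone I and 61.8, 53.2, 68.5 and 71.1 in zone III, and the imprinted non-coding RNA Rian read 1147, 1404, 1486 and 1668 and 108, 72.7, 118 and 107. Neither overlapped between zones.

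Bone matrix and mineral genes were mostly higher in zone III. Of 24 osteoblast and bone matrix genes tested, 16 were higher and 3 lower, with a median difference of 2.38 beside -0.01 over all genes. The bone-restricted membrane protein Ifitm5 rose by 5.48 ± 0.25, the matrix phosphoglycoprotein Mepe by 3.53 ± 0.12 and the alkaline phosphatase Alpl by 3.40 ± 0.31. The osteoblast transcription factor Sp7 read 72.9, 64.7, 87.7 and 79.2 in zone I and 778, 712, 718 and 696 in zone III, without overlap. Of the chains of collagen I, Col1a1 rose from 1155 ± 219.7 to 3792 ± 124 (1.73 ± 0.14, adjusted p = 9e-06), while Col1a2 was 4086 ± 659 in zone I and 3924 ± 524 in zone III (-0.05 ± 0.15, adjusted p = 0.8) at its brightest probe set. Over the median of the probe sets of Col1a2 the difference was 0.64 (adjusted p = 0.0014), so its call depends on the probe set. The 3 lower genes were Postn, periostin (-0.94), Pdpn, podoplanin (-0.98), and Tnfrsf11b, the decoy receptor of RANK ligand (-1.12).

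Of 15 genes of phosphate and mineral handling 9 were higher and 1 lower. Car3, a carbonic anhydrase, read 59.2, 26.97, 43.4 and 33.2 in zone I and 1489, 1908, 1327 and 1199 in zone III, and Car12, another member of that family, read 522, 653, 776 and 735 and 61.6, 76.8, 47.95 and 56.3. These enzymes interconvert carbon dioxide and bicarbonate, and in both the zones did not overlap, in opposite directions. Sgms2, a sphingomyelin synthase, rose by 3.51, Smpd3, a sphingomyelinase needed for mineralization, by 2.98, and Ank, the pyrophosphate transporter, by 2.92. The phosphate carrier Slc20a1 rose by 0.80. Mgp, a matrix protein which holds back mineral, was 2940 ± 348 in zone I and 2783 ± 419 in zone III and was not called.

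Osteoclast genes were higher in zone III almost throughout. Of 26 tested, 24 were higher in zone III and none was lower, with a median of 2.55. Itgb3, the integrin chain with which osteoclasts hold to bone, read 27.9, 40.7, 59.8 and 32.3 in zone I and 1342, 1151, 1231 and 1283 in zone III. Slc9b2, a sodium-proton exchanger, rose by 5.26 ± 0.21, Dcstamp, a fusion protein, by 4.38 ± 0.24, Snx10, a sorting nexin needed for acid secretion, by 4.47 ± 0.15, and the calcitonin receptor Calcr by 3.25 ± 0.36. The collagen-cutting cathepsin K gene, Ctsk, read 481, 399.8, 408 and 465 in zone I and 3746, 3275, 3412 and 3233 in zone III. All 4 zone III arrays lay above all 4 zone I arrays for each of these genes. Of the 2 genes not called, Tnfrsf11a, the RANK receptor itself, was 57.9 ± 8.63 in zone I and 66.98 ± 14.2 in zone III, close to a signal of 50, and the kinase Src was 106 ± 14.3 and 148 ± 8.88. Both calls depended on the processing, since Tnfrsf11a was higher over the median of its probe sets (1.73, adjusted p = 0.00748) and Src with ribosomal centring (0.66, adjusted p = 0.00881). Nfatc1, the transcription factor that drives osteoclast formation, rose by 1.14 at its brightest probe set, but another of its probe sets was called in the opposite direction and the median of its probe sets, 0.25, was not called.

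Most signals for osteoclast formation were higher too. Of 11 tested, 7 were higher and 1 was lower. The chemokine Ccl9 read 52.4, 37.8, 36.8 and 40.04 in zone I and 1568, 1433, 1495 and 1307 in zone III, and its receptor Ccr1 rose by 4.10 ± 0.22. Csf1, which keeps macrophages and osteoclasts alive, rose from 135 ± 16.6 to 538 ± 44.5, and its receptor Csf1r from 578 ± 167 to 2749 ± 350.3. Tnfsf11 and the gene of its decoy receptor, Tnfrsf11b, differed in opposite directions, by 5.88 and -1.12. The vitamin D receptor Vdr read 60.2, 84.03, 64.4 and 79.1 in zone I and 705, 763, 747 and 775 in zone III.

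Lysosome and proton pump genes moved by less. Of 40 tested, 24 were higher and 1, Scarb2, was lower (-0.74, not called with ribosomal centring or over the median of its probe sets), with a median of 0.70. Subunits with osteoclast forms differed most, such as Atp6v0d2 (6.98) and Tcirg1 (2.12), while the widely used pump subunits Atp6v1a and Atp6v1d differed by 0.79 and 0.67. The lysosomal membrane protein Lamp1 was at 0.22 and was not called.

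Matrix-cutting enzymes were called in both directions. Of 9 matrix metalloproteinase genes 5 were higher and 1 was lower. Besides Mmp13 and Mmp9 they were Mmp10, a stromelysin (3.38), Mmp14, a membrane collagenase (1.49), and Mmp23 (0.95), while the gelatinase Mmp2 was lower (-0.78). Of 11 ADAMTS genes tested 3 were higher (27.3%) and 4 lower (36.4%), beside 17.3% and 15.3% of all genes. Another 4 of the 15 on the array were not tested. Adamts4, an aggrecanase, rose by 1.48 ± 0.20, whereas Adamts5, the other main aggrecanase, was 115 ± 18.1 in zone I and 119.7 ± 24.1 in zone III and was not called. The study named Adamts5 among the genes up-regulated in zone III on these arrays. Its mean in zone II was 18.1, so it was higher in zone III than in zone II but not than in zone I. Adamts3, which trims procollagen II, fell from 714 ± 104 to 239.7 ± 11.9. Of the inhibitors, Timp1 rose by 1.58 and the membrane inhibitor Reck fell (-0.79), while Timp3 was at 0.31 and was not called.

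Cartilage matrix genes were lower in zone III, but unequally. Of 28 tested, 23 were lower and 1, Vit, was higher, with a median of -1.31. Epyc read 5209, 4037, 5138 and 4466 in zone I and 394, 279, 424 and 519.8 in zone III, and Matn4, a matrilin, read 1334, 2174, 1112 and 756 and 104, 81.2, 70.4 and 60.2. Cnmd, chondromodulin, which holds vessels out of cartilage, fell by 2.68 on the log2 scale, from 4386 to 692, and Mia, a small secreted cartilage protein, from 3124 to 496. The 3 chains of collagen IX ran apart, as Col9a2 differed by -2.43 ± 0.17, Col9a3 by -1.69 ± 0.17 and Col9a1 by -0.54 ± 0.12, the last not called at this probe set. Col9a1 passed with its probe sets taken at their median (-1.36), with median centring (-0.59) and without zone I array B (-0.60). Collagen II and aggrecan changed by 2-fold or less, since Col2a1 was 3701 ± 721 in zone I and 2064 ± 358 in zone III and Acan 2772 ± 484 and 1397 ± 169.6. Vit, vitrin, read 22.1, 8.16, 14.4 and 3.004 in zone I and 197, 139, 159.9 and 108 in zone III. The small proteoglycan decorin, Dcn, was 1318 ± 465 and 1483 ± 45.3 and was not called.

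Of 24 genes tested for the enzymes and carriers that build and sulphate cartilage sugar chains, 12 were lower and 3 higher. The sulphate carrier Slc26a2 fell from 1082 ± 307 to 182 ± 18.1 and the enzyme that makes active sulphate, Papss2, from 2871 ± 317 to 504 ± 34.2. The sulphotransferase Chst11 fell (-1.53), while Chst1, Chst13 and Chst15, other sulphotransferases, rose by 2.46, 2.48 and 2.47. Chst15 read 212, 175, 145 and 149.9 in zone I and 933, 822, 868 and 1151 in zone III, without overlap. The chain polymerase Chsy1 differed by 0.09 and was not called.

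Genes of the joint end and of resting cartilage were mixed. Of 14 tested, 9 were lower and 4 higher. Gas1, a Hedgehog co-receptor, fell from 1697 ± 159.8 to 469.6 ± 52.5, Barx1, a homeobox gene of joint cartilage, from 116 ± 23.6 to 19.1 ± 5.69, and the BMP inhibitor Grem1 from 179 ± 39.4 to 29.2 ± 5.16. Prg4, the joint lubricant lubricin, was 102, 94.5, 109 and 85.4 in zone I and 45.7, 36.8, 48.1 and 64.2 in zone III. The 4 higher genes were Tnc, tenascin C (1.36), Clu, clusterin (1.31), the Wnt inhibitor Wif1 (1.07), and Foxc1, a forkhead factor (0.77).

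Genes of the Hedgehog and PTHrP axis were called in both directions, 3 higher and 6 lower of 12. Ihh, the ligand made as chondrocytes stop dividing, read 69.4, 51.5, 63.5 and 61.4 on the zone I arrays, 743, 623, 608 and 811 on those of zone II and 191, 185, 212 and 261 on those of zone III. Pth1r, the PTHrP receptor, read 148, 328, 128 and 116, 2606, 1958, 1338 and 1815 and 1185, 899, 862 and 734 in the same order. Both were higher in zone III than in zone I on every array but higher still in zone II. By quantitative RT-PCR the study found Ihh kept at higher levels in zone III, and it asked for other methods to localize its expression. Ptch1, receptor and target of the pathway, was 1770 ± 236 and 1508 ± 49.9 in zones I and III and was not called, and Gli1, another target, fell from 145 ± 19.1 to 83.9 ± 2.75. The co-receptors Boc and Cdon were lower, at -2.67 and -3.36, while the inhibitor Hhip rose by 1.62.

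Wnt antagonists went both ways, 4 higher and 5 lower of 11. Dkk1 read 31.6, 21.7, 31.2 and 36.5 in zone I and 891, 801, 983 and 1032 in zone III (4.96 ± 0.17, adjusted p = 8.9e-08). Its relatives Dkk2 and Dkk3 read 491, 315, 346 and 394 and 738, 511, 663 and 519.9 in zone I, and 96.4, 75.01, 86.6 and 69.98 and 103, 124, 97.3 and 109 in zone III. The 3 Dkk genes did not overlap between zones, with Dkk1 in 1 direction and the others in the other. The secreted frizzled-related genes parted in the same way, since Frzb and Sfrp4 rose by 1.36 and 1.27 and Sfrp1, Sfrp2 and Sfrp5 differed by -2.82, -2.97 and -1.42. Sfrp5 (adjusted p = 0.027) lost its call under 7 of the alternatives, at adjusted p up to 0.0837, while the other 8 called genes of this list kept theirs.

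Of 10 BMP and GDF ligands 4 were higher and 3 lower. Bmp8a read 30.02, 16.9, 18.2 and 7.89 in zone I and 273, 195, 261 and 232 in zone III, and Bmp2 rose by 1.32 and Bmp6 by 1.20. Bmp5 fell from 1431 ± 199 to 373 ± 63.8 and Gdf10 from 360.1 ± 112 to 57.5 ± 16.6, while Bmp4 differed by 0.20 and was not called. Among the 8 extracellular antagonists 4 were lower, with Bmper at -1.99 and Grem1 at -2.60, and 1 was higher. That gene, Chrdl1, had mean signals of 38.02, 1094 and 127 in zones I, II and III. In the insulin-like growth factor group 2 of 15 were higher (13.3%) and 6 lower (40.0%), beside the same shares of all genes. Igf1 fell from 1827 ± 352 to 432 ± 77.7, the binding proteins Igfbp2, Igfbp5 and Igfbp7 differed by -2.47, -1.29 and -1.53, and Igfbp3 rose by 1.33. Igf2 was 3701 ± 674 and 2913 ± 372 and was not called, though it was lower over the median of its probe sets (-0.74, adjusted p = 0.000426).

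**Figure D3:**
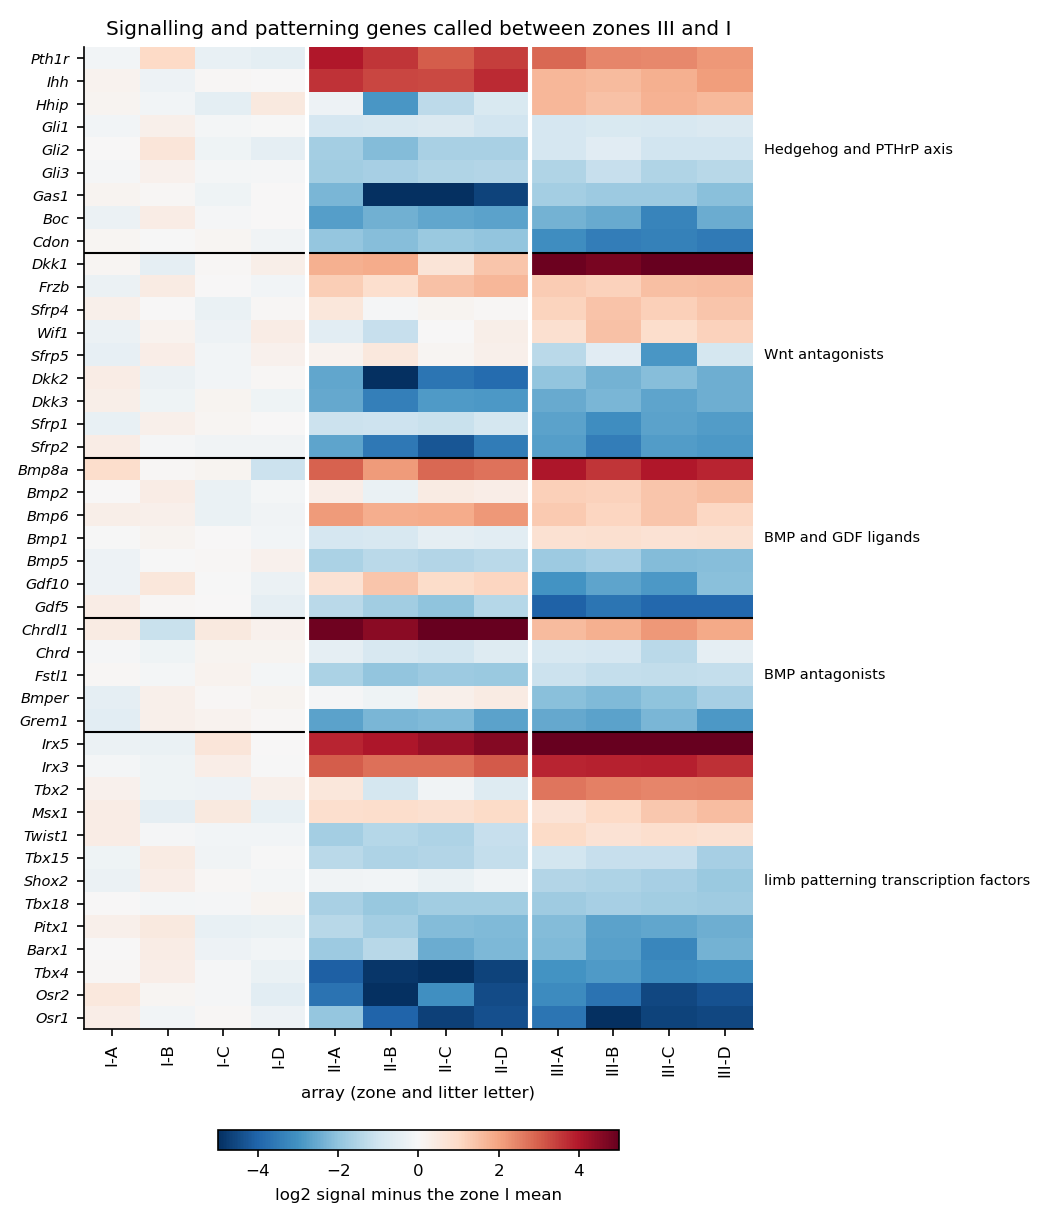
Log2 signal on each of the 12 arrays minus the zone I mean of the gene (red higher, blue lower, colours limited to 5 in either direction) for the called genes of 5 lists, with a gene of 2 lists shown once. The 4 arrays of a zone resemble each other, and Ihh, Pth1r, Bmp6 and Chrdl1 are highest in zone II.

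Transcription factors that set limb position also differed. Of 19 limb patterning factors 5 were higher and 8 lower. Irx5 and Irx3, neighbours of the Iroquois homeobox family, read 26.4, 25.98, 48.8 and 32.6 and 33.6, 30.5, 44.1 and 35.01 in zone I, and 1225, 1119, 1510 and 1307 and 504, 507, 527 and 444 in zone III. The hindlimb factors Tbx4 and Pitx1 fell from 568 ± 111 to 69.01 ± 6.802 and from 596 ± 176 to 105 ± 17.5, and the joint factors Osr1 and Osr2 from 57.6 ± 10.4 to 2.67 ± 1.32 and from 70.3 ± 20.9 to 4.78 ± 2.15. Shox2, which shapes the proximal limb, fell by 1.64 on the log2 scale, and Tbx2 rose by 2.53. Of 15 Hox genes tested 6 were lower (40.0%) and 2 higher (13.3%), beside 15.3% and 17.3% of all genes. Another 16 of the 31 on the array were not tested. The lower genes were led by Hoxa10, Hoxa11 and Hoxc10, all genes of the leg segments. Their means fell from 921 ± 48.1 to 258 ± 19.3, 838 ± 147 to 238 ± 28.9 and 378 ± 47.7 to 130 ± 17.9. The 2 higher, Hoxa3 and Hoxb2, read 14.8, 26.7, 63.8 and 20.6 and 31.1, 27.1, 35.97 and 38.6 in zone I and 80.1, 37.8, 108 and 145 and 138, 104, 109.6 and 109 in zone III, and the arrays of Hoxa3 overlapped. Hoxa3 was not called under 6 of the alternatives and was lower in zone III within 1 of 3 fluidics runs (-0.76).

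Genes of dividing cells were lower in zone III and none was higher. Of 39 mitosis genes 26 were lower, with a median of -0.83, and of 38 DNA replication genes 17 were lower, with a median of -0.50. Nusap1, a spindle protein, fell from 1303 ± 158 to 425 ± 69.5, Top2a, topoisomerase II, from 1876 ± 168 to 888 ± 145, and the primase subunit Prim1 from 1626 ± 152 to 674 ± 65.5. The licensing factor Mcm4 was at 0.06 and was not called. With ribosomal centring the lower replication genes numbered 10. Of 22 cell cycle inhibitors and D cyclins 8 were higher and 5 lower, or 2 lower with ribosomal centring. The inhibitors Cdkn1a (p21) and Cdkn2b (p15) read 166, 171, 122 and 121 and 18.7, 5.15, 21.98 and 26.4 in zone I and 2218, 1664, 2081 and 1939 and 440.1, 442, 529 and 516 in zone III. Cdkn1c (p57) fell from 4501 ± 579.9 to 2560 ± 456, and Cdkn2c (p18) from 516 ± 56.5 to 261 ± 28.7. Inhibitors thus differed in both directions, and no array of Cdkn1a or Cdkn2b overlapped.

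Vessel genes were higher in zone III. Of 26 endothelial genes 25 were higher and the remaining one, Erg, was 507 ± 36.8 in zone I and 544 ± 22.4 in zone III. The list median was 1.46. Cldn5, a tight junction protein, read 217, 95.03, 125 and 97.3 in zone I and 458, 611, 585 and 526 in zone III, and Adgrf5, an adhesion receptor, rose by 2.62. Flt4 and Kdr, receptors for vascular endothelial growth factors, rose by 2.50 and 1.84. Of 33 angiogenic ligands and receptors 20 were higher and 5 lower. The ligand Pgf read 10.1, 15.3, 17.6 and 27.4 in zone I and 142, 202, 182 and 139 in zone III, and Vegfc and Vegfa rose by 1.74 and 1.09. Of 10 mural cell genes 5 were higher and 4 lower, or 2 lower with a floor of 100, under which some members were not tested. Pdgfrb and Abcc9 rose by 2.73 and 2.01 while Rgs5, Tagln, Cspg4 and Des differed by -1.49, -2.33, -1.05 and -0.88.

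Guidance genes, known from growing axons and vessels, were called in both directions, 20 higher and 10 lower of 46. Slit3 and Slit2, repellent ligands, read 11.5, 6.09, 11.8 and 6.07 and 163, 114, 171 and 157 in zone I and 181, 152, 194 and 137 and 829, 919.5, 814 and 807 in zone III. The netrin receptor Unc5b rose by 3.04 and the semaphorins Sema4d, Sema6d and Sema7a by 2.33, 2.27 and 2.29. Sema3c read 1239, 1401, 1516 and 1732 in zone I and 141, 62.1, 104 and 128 in zone III, and the ephrin receptor Epha7 was lower, at -2.12. Ligands of 1 family thus stood at both ends of the comparison.

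Markers of other cell types in the segments also moved. Of 22 macrophage and myeloid genes 16 were higher, among them Cd68, which osteoclasts also carry (4.21), Tyrobp (3.53), Mpeg1 (3.46) and the leukocyte phosphatase Ptprc (3.07). Of the rest 4 were not called and 2 were lower. Another 6 of the 28 on the array were not tested, C1qa among them, with means of 48.6 and 36.9 in zones I and III. Adgre1 (F4/80) was 260.4 ± 49.4 and 276 ± 30.4, C1qb 184 ± 47.8 and 158 ± 22.1, both not called, and the lower genes were Mrc1 and Cx3cr1, at -1.02 and -0.69. The call of Cx3cr1 was lost under 3 alternatives, the fit without zone I array A among them (-0.55). The summed signal of the 22 genes was 2739 to 4246 on the zone I arrays and 9980 to 12317 on the zone III arrays. For the 26 endothelial genes it was 3079 to 4702 and 9303 to 10119. Their part in the results for other genes was not tested.

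Red cell genes could be tested only in part, since 9 of the 15 on the array lay under the floor of 50 in both zones. Of 6 tested, only Alas2 was higher (0.72, adjusted p = 0.0244), or 16.7% beside 17.3% of all genes. For Alas2, 7 of the alternatives ended the call, with adjusted p up to 0.202. Of the others tested, the embryonic globin Hbb-y was 1477 ± 994 in zone I and 1818 ± 941 in zone III. Hba-a1 was among those under the floor. It was read only at probe sets named by that gene alone, so its low signal does not show that the transcript was absent. Of 6 megakaryocyte genes only F13a1 was higher (2.65), again 16.7%, and the platelet gene Pf4 was 469.5 ± 126 and 402 ± 27.1. The receptor Kit rose from 62.1 ± 20.8 to 425 ± 63.9. Of 15 muscle genes 2 were lower and 1, Tnni1, was higher, or 13.3% and 6.7% beside 15.3% and 17.3% of all genes. Myod1 and Myog were 59.6 ± 24.3 and 98.4 ± 56.2 in zone I and 40.2 ± 17.4 and 62.2 ± 18.6 in zone III. Muscle signal was uneven between litters, since the embryonic myosin Myh3 read 463, 34.4, 95.3 and 30.8 in zone I and 50.4, 8.31, 17.5 and 25.3 in zone III and was not called. Paired by letter in limma, Myh3 was lower in zone III (-1.99, adjusted p = 0.013), as it was with array weights (-2.25, adjusted p = 0.0466).

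Tendon and perichondrium genes were lower in zone III. Of 24 tested, 16 were lower and 2, Col1a1 and Twist1, were higher, with a median of -1.30. Kera, keratocan, read 554, 181, 201 and 215 in zone I and 24.9, 2.73, 6.32 and 84.2 in zone III, Dpt, dermatopontin, 1056, 484, 405 and 442 and 33.4, 48.3, 14.2 and 41.5, and Tnmd, tenomodulin, 929, 460.2, 599.5 and 573 and 151, 146, 166 and 259. The tendon factors Scx and Mkx were lower, at -1.36 and -2.25. Zone I array A was the highest of its zone for Kera and Dpt, at 554 and 1056, and without it the same number of the list, 16, was lower. The summed signal of the list was 26078 to 34319 in zone I and 17345 to 19996 in zone III. Its part in the other results was not tested. Of 11 nerve and Schwann cell genes 6 were lower and 3 higher. Sox10, a Schwann cell factor, fell from 219.8 ± 38.9 to 95.05 ± 32.2, and Nefm, a neurofilament chain, from 64.6 ± 13.4 to 13.8 ± 4.68. Mbp, myelin basic protein, had mean signals of 22.5, 2643 and 451 in zones I, II and III and did not follow Sox10.

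Other collagens were balanced, 8 higher and 8 lower of 24. Col13a1, a membrane collagen, read 26.4, 34.5, 10.9 and 32.98 in zone I and 694, 714, 664 and 583 in zone III, and Col22a1 read 83.8, 77.3, 46.03 and 65.3 and 1251, 1198, 1164 and 1203. The basement membrane chains Col4a1 and Col4a2 rose by 1.04 and 0.99. Col14a1, a collagen of dense connective tissue, fell from 1551 ± 145 to 219.7 ± 63.9 and the chains of collagen VIII, Col8a1 and Col8a2, differed by -2.07 and -2.67. Of 33 genes of secretory chaperones and of enzymes that modify collagen in the cell, 9 were lower (27.3%), or 5 with ribosomal centring. The factor Creb3l1 alone was higher (1.66), 3.0% of the list. Over all genes 15.3% were lower and 17.3% higher. The proline and lysine hydroxylases P4ha3 and Plod2 were lower, at -3.62 and -1.45, whereas the general chaperone Hspa5 differed by -0.15 and was not called. Creb3l2, a close relative of Creb3l1, differed by -1.64, the opposite direction.

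Few genes of oxidative phosphorylation or glycolysis were higher. Of 51 genes of oxidative phosphorylation 1 was higher, 1 was lower and the median was -0.01. Of 18 glycolysis genes 5 were lower and none higher, led by the lactate carrier Slc16a3 (-1.34), and 2 were lower with ribosomal centring. Of 19 hypoxia genes 5 were higher (26.3%) and 7 lower (36.8%), beside 17.3% and 15.3% of all genes. With ribosomal centring 4 were lower. Epas1, the gene of HIF-2 alpha, rose by 2.15 ± 0.17 and Hif1a, the gene of HIF-1 alpha, fell by 0.81 on the log2 scale. The carbonic anhydrase Car9 read 304, 524, 246 and 300 in zone I and 33.4, 42.9, 27.6 and 55.9 in zone III. Of 26 genes of cholesterol and fatty acid synthesis 5 were lower and 1 higher. These were 19.2% and 3.8% of the list, beside 15.3% and 17.3% of all genes. The lower ones numbered 3 without zone I array C or without zone III array B and 1 with ribosomal centring. None of the 42 ribosomal protein genes was called, and by limma 1 of them had an unadjusted p under 0.05, which stayed under 0.05 when adjusted, at less than 1.5-fold.

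Immediate response and immune genes added a few large differences. Egr3, an early growth response factor, read 37.7, 47.3, 25.9 and 26.4 in zone I and 486, 462, 525 and 586 in zone III, and Fosl2, an AP-1 factor, rose by 2.26 ± 0.16. Fos and Jun themselves were 2482 ± 653 and 553 ± 198 in zone I and 2740 ± 414 and 371 ± 129 in zone III and were not called. Jun read 705, 699, 283 and 524 in zone I and 456, 469, 188 and 371 in zone III, lower in zone III at each of the 4 letters. Paired by letter in limma, its difference of -0.57 had an adjusted p of 0.0046 in place of 0.228 and stayed under 1.5-fold. Creb5 fell from 276 ± 55.8 to 54.4 ± 12.3. In all 5 of 19 early response factors were higher (26.3%) and 1 lower (5.3%), beside 17.3% and 15.3% of all genes. Of 17 interferon and antigen processing genes 10 were higher and 1 was lower, with the factor Irf8 at 2.05 and the interferon-induced Gbp2 at 1.82.

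Zone II was not used to choose these genes, and its place between the zones differed by direction. Of the 2027 genes higher in zone III, 39.6% had a zone II mean between zones I and III, 53.9% had their lowest mean in zone II and 6.5% their highest. Of the 1794 lower genes 51.6% had zone II in between, 23.6% had their highest mean in zone II and 24.8% their lowest. Quantile normalization and centring on ribosomal protein genes moved these shares, with 46.0% and 72.8% of the higher genes lowest in zone II. Endothelial genes had their lowest values in zone II, where the list's median member lay between -1.75 and -0.69 against zone I, and tendon genes lay between -2.26 and -1.75. Osteoclast genes lay near the zone I level in zone II, from -0.13 to 0.19, and stood at 2.31 to 2.78 in zone III, whereas genes of prehypertrophic and hypertrophic chondrocytes stood at 0.97 to 1.53 in zone II and 1.29 to 1.60 in zone III. Of the 20 tested genes of that chondrocyte list, 13 were called higher in zone III than in zone I, 4 lower and 3 were not called. Cartilage matrix genes stood at 0.23 to 0.38 in zone II against zone I and at -1.49 to -1.20 in zone III. Ribosomal protein genes stood at 0.19 to 0.40 in zone II, a range that spans the small zone II rise of cartilage matrix genes. Whether that rise, or the zone II values of the other lists, would hold under another scaling was not tested. For Col2a1 the study's quantitative RT-PCR found lower expression in zone II than in zone I.

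**Figure D4:**
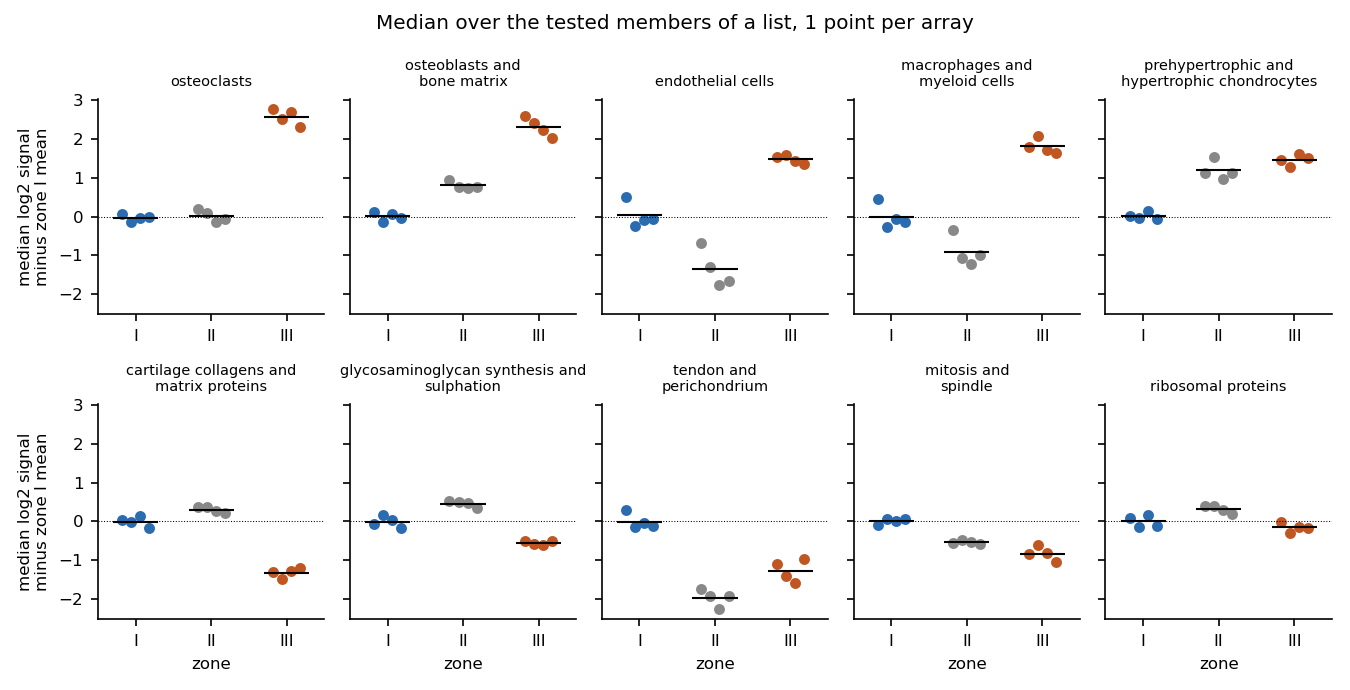
Median over the tested members of a list of the log2 signal minus the zone I mean of each gene, 1 point per array (A to D from left to right) in zones I, II and III, with a bar at the mean of the 4 arrays. Osteoclast genes are high in zone III alone of the 3 zones, endothelial and macrophage genes are lowest in zone II, and ribosomal protein genes lie between -0.31 and 0.40 throughout.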

How the data were processed

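The deposited table held intensities, 1 linear signal per probe set and array, and the values showed a trimmed mean of 150 on every array, a scaling found from the values and stated by no source. The methods name GC-RMA and the submitters' processing notes name RMA, and a common trimmed mean is not what these give, so the algorithm behind the signals is unknown here. Array processing records were read for the fluidics run of each array. No columns were left unmatched to a sample (0).

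The log2 of each signal was used, nothing added. Of 45101 probe sets, those whose mean signal reached 50 in zone I or zone III were kept, the 64 controls left out. The zones were compared on their 8 arrays with limma 3.58.1 in R 4.3.3 (lmFit and eBayes, two-sided, no covariates, Benjamini-Hochberg over 21833 probe sets), and the steps were tested on simulated data. A gene was read at the brightest of the probe sets named by that gene alone (34945 probe sets, 932 with several symbols and 9160 with none were not named). Signals are means ± SD over 4 arrays, differences carry limma's SE, and the number of arrays limits their precision.

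Members of the comparison and the 46 gene lists were chosen with earlier results of these data known. Named are the 5 zone markers, the 12 largest called differences per direction and the 12 largest with both zones at 50 or more. Also named are up to 6 called members per direction of a list, with members called against its direction and up to 4 uncalled ones. Not every gene the rule allows is named. By the study's methods each litter was an independent experiment. The letters were taken to pair the arrays of a litter across zones, which no source states. Deviations of same-letter arrays from their zone means correlated at 0.146 to 0.187. The arrays passed through 3 fluidics runs. Alternatives were other filters and scalings, 16 added to the signal, all 12 arrays, other variance models and blocks by letter or run. Further ones were no fold threshold, limma's treat, the median over probe sets of a gene and leaving out each array. Counts of alternatives that ended a call leave out treat. Promoter windows were taken from RefSeq on GRCm38.p6. Zone II entered only the description of its place.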

Additional observations from a re-analysis of the deposited data

Results flagged for a closer look

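Of 448 groups of 4 arrays examined for the named genes, 27 held an array whose gap to its nearest neighbour exceeded Dixon's 95% critical share of the group's range, and chance flags about 1 group in 20. Of these, 11 fell on zone I array A, which stood above the other 3 arrays of zone I. On that array Kera read 554 (others 181 to 215), Dpt 1056 (405 to 484), Myh3 463 (30.8 to 95.3), Nefm 84.5 (55.7 to 59.2), Twist1 277 (195 to 208) and Igfbp2 901 (472 to 546). There C1qb read 255 (155 to 166), Chst1 124 (62.5 to 71.5), Epas1 424 (264 to 280), Fosl2 252 (164 to 170) and Hpgd 160 (91.5 to 98.8). Without zone I array A the comparison gave 2043 genes higher and 1823 lower in zone III.

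On the other zone I arrays, B was high for Ocstamp at 6.25 (others 2.44 to 3.01), Pth1r at 328 (116 to 148) and Smpd3 at 97.4 (68.9 to 73.6), and D was low for Igfbp5 at 612 (837 to 881). In zone III, array A was high for Hbb-y, the embryonic globin, at 3223 (1241 to 1457), Hoxb2 at 137 (104 to 110), Mmp14 at 2754 (2323 to 2392) and Sema4d at 476 (379 to 392). Zone III array B was low for Col10a1 at 1814 (2475 to 2596), Irf8 at 141 (156 to 158), Prelp at 47.7 (65.6 to 68.9) and Sfrp2 at 46.3 (70.8 to 75.1), and high for Tnfrsf11b at 209 (158 to 165). Zone III array C was high for Sox5 at 39.3 (19.0 to 20.4) and Papss2 at 555 (479 to 492), and array D for Csf1 at 604 (511 to 521).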

How the results depend on the processing

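The number of arrays limits precision, and a fold against a mean signal under 50 rests on the background. Leaving out each array in turn gave 3525 to 3775 probe sets higher and 2834 to 3053 lower, and 1950 to 2083 genes higher and 1720 to 1823 lower. With limma's treat, which tests against 1.5-fold itself, 1811 probe sets were higher and 1167 lower, and 1047 genes were higher and 723 lower, since its null is wider. Every other alternative kept these counts within 1.5 times. The paired fit with a replicate block gave 3802 probe sets higher and 3026 lower and 2045 genes higher and 1807 lower, and among named genes it added the call of Myh3 (-1.99) and ended none.

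The place of zone II moved with the scaling. Under quantile normalization 46% of the higher genes were lowest in zone II and 46.3% had it in between, with 54.8% in between for the lower genes. Under ribosomal centring these shares were 72.8%, 24.7% and 42.3%. Of 199 named genes called, treat kept 170, and a floor of 100 left 16 untested. Under the other refits, and where tested under that floor, 193 kept their call, and the others were Alas2, Cx3cr1, Hoxa3, Nfatc1, Scarb2 and Sfrp5. Hoxa3 was at -0.76 within fluidics run 2, and the cause was not tested. Of 55 list counts of 3 or more, 7 moved by over 1.5 times, 6 of them under ribosomal centring (cholesterol and fatty acid synthesis also without zone I array C or zone III array B) and the remaining 1, mural cells, under a floor of 100, with treat not counted for lists.

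Of 25 named genes not called, Col1a2, Col9a1, Igf2, Myh3, Src and Tnfrsf11a were called under some alternative, and 7 changed sign somewhere. Adamts5 went to -0.04 with quantile normalization, -0.01 with median centring, -0.02 with array weights and -0.16 over the median of its probe sets, and ranged from -0.05 to 0.19 when single arrays were left out, below 0 without zone I array B or zone III array B or D. Col1a2 went to 0.12 with quantile normalization, 0.11 with ribosomal centring, 0.64 over the median of its probe sets, and from -0.14 to 0.04 with single arrays left out, above 0 without zone I array C (0.03) or zone III array B. Mgp went to 0.04 and 0.08 with quantile normalization and ribosomal centring and ranged from -0.15 to 0.03 without single arrays, above 0 only without zone III array B. Mcm4 was at -0.07 over the median of its probe sets and ranged from -0.06 to 0.16, below 0 without zone I array C or zone III array B (-0.04). Without single arrays Adgre1 ranged from -0.03 (zone I array B left out) to 0.18 and Fos from -0.04 (zone I array C left out) to 0.28, and Hspa5 was at 0.02 with ribosomal centring.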
